A study of Mus musculus with 7 samples.

Results

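Keratins are the intermediate filament proteins of epithelial cells, and a filament forms from a type I and a type II keratin that pair with each other. Stratified epidermis makes *Krt5* and *Krt14* in its basal layer and *Krt1* and *Krt10* above it. The moist stratified linings of the mouth and esophagus make *Krt4* (type II) and *Krt13* (type I) in their upper layers, and single-layered and glandular epithelia make *Krt7* and *Krt8* (type II) with *Krt18* and *Krt19* (type I). Normal skin between hair follicles holds little of either set, and *Krt13* and *Krt8* with *Krt18* are known as markers of progression in chemically induced mouse skin tumors. The 6 genes *Krt4*, *Krt13*, *Krt7*, *Krt8*, *Krt18* and *Krt19* were taken, by symbol, from 23284 gene symbols measured in mouse papillomas. They were selected on the TG against CTR contrast of these FPKM values, so their levels and differences between the groups are given as a description without a test.

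The papillomas came from 4 CTR and 3 TG mice on a C57Bl/6 background, adult and matched for age. Both groups carried the doxycycline-inducible *tetO-Nanog* allele, a *Nanog* cDNA placed downstream of *Col1a1*, went through the DMBA/TPA skin protocol and drank DOX at 2 mg/ml. Only TG mice also carried *K5-rtTA*, a transactivator driven by a bovine *K5* promoter and active in the basal layer of stratified epithelia, so CTR mice had the allele without the protein that switches it on. Each library was made from a papilloma of a separate mouse, and mice were killed when the protocol ended or earlier on humane grounds, so the time of collection could differ between mice.

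The level of a gene is given in FPKM, the fragments of a gene scaled to the length of its transcripts and to the mapped fragments of the library, which the authors estimated with Cufflinks. The deposited intervals implied between 10077008 and 15711400 reads on genes in a papilloma. *Nanog* was 2.70, 2.84, 12.7 and 3.35 FPKM in CTR 1 to 4 and 36.9, 57.4 and 66.9 FPKM in TG 1 to 3, so the level of the induced gene followed the labels. TG 3 stood apart from the other libraries. Its median FPKM over all entries was 1.04, against 0.481 to 0.596 elsewhere, and its summed FPKM of 10 skeletal muscle markers was 771, against 8.86 to 13.95 in the other 6 papillomas. The differences of the 6 keratins are therefore also given without TG 3, as are those of related genes that it moved by over 1.5 times. The defining epidermal markers *Krt5* and *Krt14* together stood at 6436 to 9604 FPKM in CTR and 6500 to 12714 FPKM in TG papillomas, so all 7 libraries held keratinocyte RNA.

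On GRCm38 the type II genes lie on chromosome 15 and the type I genes *Krt13* and *Krt19* on chromosome 11. *Krt18* is the type I gene placed outside its cluster, in a neighboring position to its partner. In the deposited loci *Krt8* (chr15:101996711-102004342, minus strand) and *Krt18* (chr15:102028216-102032026, plus strand) point away from each other across 23.9 kb that hold 0 annotated protein-coding genes. *Krt4* (chr15:101918535-101924735, minus strand) lies 72.0 kb from *Krt8*, with *Krt78* and *Krt79* between. *Krt7* (chr15:101412403-101427806, plus strand) lies on the far side of *Krt5*. *Krt13* (chr11:100117596-100121495, minus strand) and *Krt19* (chr11:100140811-100145919, minus strand) lie 19.3 kb apart with *Krt15* between them. The mucosal partners *Krt4* and *Krt13*, whose levels moved together, thus lie on different chromosomes.

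The 250 bases before the RefSeq start (GRCm38.p6) are shown for the 4 of 6 genes with an entry, among them the partners *Krt8* and *Krt18*, whose levels moved together across the papillomas. They are written 5′ to 3′ on the strand of the gene, with motif matches in capitals. The positions are chr11:100121567-100121816 (minus strand) for *Krt13*, whose RefSeq start lies 71 bases upstream of the deposited one, chr15:101412153-101412402 (plus strand) for *Krt7*, chr15:102004343-102004592 (minus strand) for *Krt8* and chr15:102027966-102028215 (plus strand) for *Krt18*.
Krt13: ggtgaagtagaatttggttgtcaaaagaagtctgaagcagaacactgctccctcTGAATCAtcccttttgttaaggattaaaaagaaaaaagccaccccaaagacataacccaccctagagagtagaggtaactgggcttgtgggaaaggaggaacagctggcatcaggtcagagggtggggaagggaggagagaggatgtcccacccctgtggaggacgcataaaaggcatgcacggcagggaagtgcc
Krt7: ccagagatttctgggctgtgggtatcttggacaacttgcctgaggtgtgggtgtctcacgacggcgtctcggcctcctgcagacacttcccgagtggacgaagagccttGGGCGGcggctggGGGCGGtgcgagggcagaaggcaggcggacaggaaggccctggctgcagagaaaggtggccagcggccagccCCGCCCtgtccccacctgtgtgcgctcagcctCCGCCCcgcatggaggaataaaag
Krt8: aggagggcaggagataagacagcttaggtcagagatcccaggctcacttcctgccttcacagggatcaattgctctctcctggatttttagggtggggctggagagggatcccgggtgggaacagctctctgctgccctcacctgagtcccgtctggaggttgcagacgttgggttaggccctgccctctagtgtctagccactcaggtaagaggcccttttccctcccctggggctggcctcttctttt
Krt18: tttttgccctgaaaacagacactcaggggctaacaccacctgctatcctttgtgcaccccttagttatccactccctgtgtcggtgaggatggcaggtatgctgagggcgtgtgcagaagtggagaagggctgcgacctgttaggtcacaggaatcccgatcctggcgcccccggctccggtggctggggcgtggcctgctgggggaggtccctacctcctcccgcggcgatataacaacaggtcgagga

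5 motifs were searched on both strands, the AP-1 site TGANTCA, the NANOG core TAATGG, the GC box GGGCGG, the TATA box TATAAA and the CCAAT box CCAAT, and none of these letter strings contains another. AP-1 is a transcription factor that TPA activates in skin. The *Krt13* window held 1 AP-1 match, TGAATCA, whose first base lies 196 bases before the start, and 6.87% of 27025 mouse windows of this length hold such a match. The *Krt7* window held 4 GC boxes, at 141, 128, 56 and 24 bases before the start, and 32.9% of all windows hold at least 1. Its GC content was 66.0%, against a median of 52.0% over all windows. The windows of *Krt8* (58.0% GC) and *Krt18* (60.4% GC) held no match to any of the 5 motifs. The other motifs had no match in any of the 4 windows, against shares of 6.61% for TAATGG, 13.0% for TATAAA and 34.5% for CCAAT over all windows. A match is a run of letters and not a measured binding site.

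The mucosal partners were abundant in all CTR papillomas and scarcer in TG 1 and TG 2, while TG 3 lay within the CTR range of both. *Krt4*, the type II partner, was 300, 580, 782 and 407 FPKM in CTR 1 to 4 and 18.9, 29.7 and 570 FPKM in TG 1 to 3. TG 1 and TG 2 lay below every CTR papilloma and TG 3 above CTR 1 and CTR 4, so the groups overlapped. The means were 517 ± 211 FPKM in CTR (SD, n = 4) and 206 ± 315 FPKM in TG (SD, n = 3), and the difference of the means of log2(FPKM + 0.5), TG minus CTR, was -2.81. Adding 0.5 FPKM makes the difference of a low gene look smaller than its ratio. Without TG 3 the difference of *Krt4* was -4.33, and the lowest CTR value was 10.1 times the higher of the other TG values. In a whole papilloma, fewer cells making a keratin and less RNA per cell cannot be told apart.

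*Krt13*, the type I partner, was 2406, 5039, 6007 and 4753 FPKM in CTR 1 to 4 and 1290, 789 and 3210 FPKM in TG 1 to 3. It was between the 5th and the 69th most abundant gene of a papilloma. TG 1 and TG 2 again lay below every CTR papilloma, and TG 3 lay above CTR 1 alone. The means were 4551 ± 1528 FPKM in CTR (SD, n = 4) and 1763 ± 1278 FPKM in TG (SD, n = 3), a log2 difference of -1.54, or -2.10 without TG 3. *Krt13* made up 7.33% to 14.7% of the summed FPKM of all keratins in CTR papillomas, and 2.68%, 2.06% and 11.3% in TG 1 to 3.

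*Krt18*, the type I keratin of single-layered epithelia, was 0.417, 2.35, 3.42 and 7.16 FPKM in CTR 1 to 4 and 2.37, 2.39 and 23.3 FPKM in TG 1 to 3. TG 1 and TG 2 sat inside the CTR range and TG 3 at 3.26 times the next highest papilloma. The log2 difference was 0.97 with TG 3 and -0.047 without it. *Krt8*, the type II partner of *Krt18*, was 0.109, 0.367, 0.569 and 0.672 FPKM in CTR and 0.141, 0.389 and 8.27 FPKM in TG. TG 3 stood at 12.3 times the next highest papilloma, and the other TG papillomas sat inside the CTR range. Its log2 difference was 0.92, and -0.26 without TG 3.

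*Krt19*, a type I keratin of glands, ducts and hair follicle stem cells, was 0.390, 1.60, 0.530 and 0.381 FPKM in CTR 1 to 4 and 0.568, 0.718 and 9.72 FPKM in TG 1 to 3. TG 3 stood at 6.09 times CTR 2, the next highest. The log2 difference was 1.05, and 0.00 without TG 3. *Krt7*, a type II keratin of ducts and glands, was 0.443, 1.56, 0.775 and 0.280 FPKM in CTR and 0.0303, 0.229 and 2.75 FPKM in TG. TG 1 and TG 2 lay below every CTR papilloma and TG 3 above all of them, so the mean difference of -0.13 on the log2 scale covers values on both sides, and without TG 3 it was -0.92. The low values of *Krt7* rest on few reads, about 1 in TG 1 and 4 in TG 2 against 6 to 35 in CTR papillomas and 61 in TG 3.

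**Figure D1:**
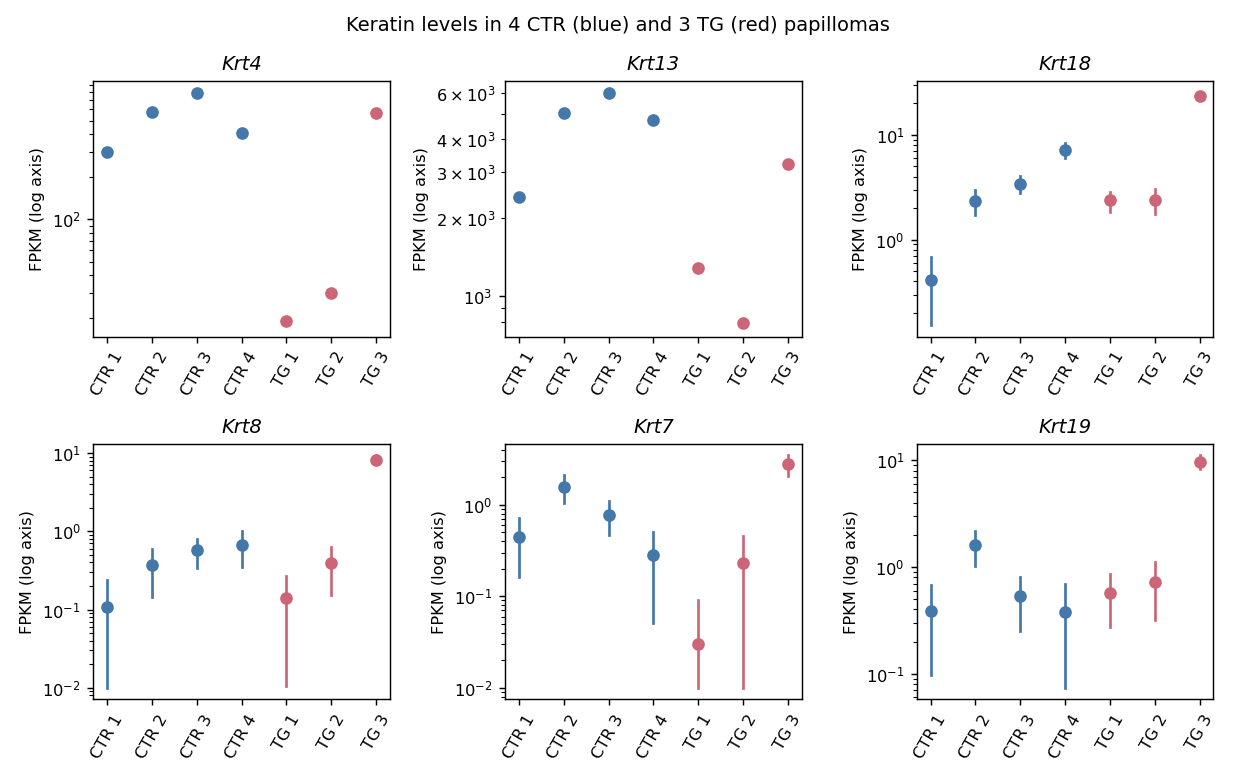
FPKM on a log axis of the 6 keratins in each papilloma, CTR in blue and TG in red. Vertical lines are the deposited Cufflinks intervals, which describe uncertainty within a single library, and a lower end at 0 is drawn at 0.01. *Krt4* and *Krt13* are low in TG 1 and TG 2, and *Krt7*, *Krt8*, *Krt18* and *Krt19* are highest in TG 3.

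None of the 6 keratins separated the groups, with 0 of 6 higher and 0 of 6 lower in all TG papillomas than in all CTR papillomas, against 4.93% and 2.23% of the 12299 tested genes. Without TG 3, *Krt4*, *Krt13* and *Krt7* were lower in both TG papillomas than in every CTR papilloma (3 of 6), against 8.97% of the tested genes, and 0 of 6 were higher, against 8.94%. These counts restate the contrast the genes were selected on, and nothing is read from them. TG 3 was the highest of the 7 papillomas for *Krt7*, *Krt8*, *Krt18* and *Krt19* (4 of 6), as it was for 41.1% of the tested genes. The ratio of TG 3 to the next highest papilloma was larger than that of *Krt8* in 0.691% of tested genes, of *Krt19* in 1.26%, of *Krt18* in 2.84% and of *Krt7* in 7.19%. The genes were selected on these same values, so nothing is read from these shares either. Of the FPKM summed over the TG papillomas, TG 3 carried 94.0% for *Krt8*, 92.1% for *Krt4*, 91.4% for *Krt7*, 88.3% for *Krt19*, 83.0% for *Krt18* and 60.7% for *Krt13*. All 6 passed the filter on low values, set at 0.5 FPKM for the average of the 7 papillomas, and *Krt8* passed it through TG 3 alone.

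**Figure D2:**
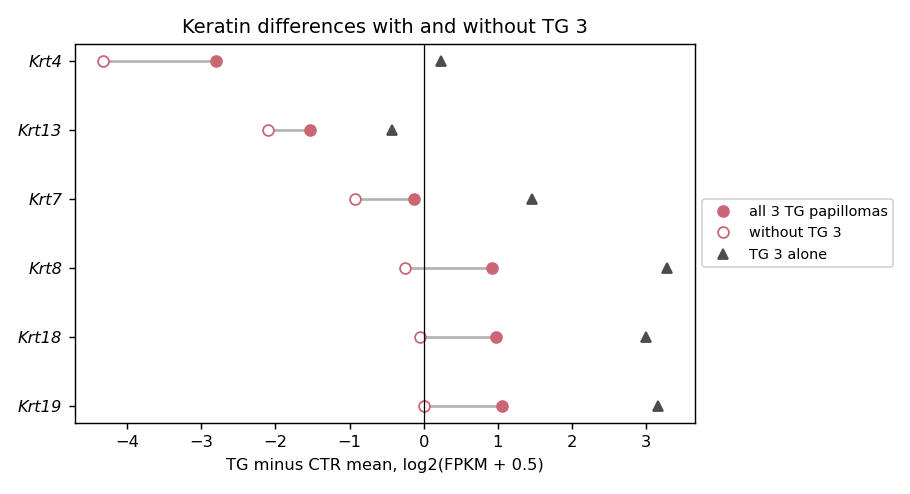
TG minus CTR difference of the mean log2(FPKM + 0.5) for each keratin, with all 3 TG papillomas (filled), without TG 3 (open) and for TG 3 alone (triangles). *Krt4* and *Krt13* lie left of 0 with and without TG 3, while *Krt8* and *Krt18* move from 0.92 and 0.97 to -0.26 and -0.047.

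In order of level, which FPKM allows because it is per length, *Krt13* was above *Krt4* and *Krt4* above the other keratins of the set in 7 of 7 papillomas. *Krt18* came next, above *Krt8* and *Krt19* in 7 of 7 and above *Krt7* in 6 of 7. The last places were not distinct, since *Krt19* was above *Krt7* and above *Krt8* in 5 of 7 papillomas each and in 2 of 4 CTR papillomas each. The CTR papillomas also varied among themselves. The SD of log2(FPKM + 0.5) over the 4 CTR papillomas was 1.28 for *Krt18* and 0.42 to 0.61 for the other 5 keratins, against a median of 0.25 over the tested genes. *Krt18* ranged 17.2-fold between CTR 1 and CTR 4, and *Krt13* ranged 2.50-fold.

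Partner keratins did not keep a fixed ratio. The FPKM ratio of *Krt13* to *Krt4* was 8.02, 8.69, 7.68 and 11.7 in CTR papillomas (mean 9.02 ± 1.82, SD, n = 4). It was 68.3 in TG 1 and 26.5 in TG 2, above every CTR papilloma, and 5.63 in TG 3, below every CTR papilloma, so *Krt4* was the lower of the pair by more in TG 1 and TG 2. The ratio of *Krt18* to *Krt8* was 3.81, 6.40, 6.01 and 10.7 in CTR and 16.8, 6.15 and 2.82 in TG papillomas, the lowest in TG 3. The *Krt18* to *Krt8* ratio rests on 3 to 24 reads of *Krt8* outside TG 3 and on 224 in TG 3.

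Measured against the basal keratins of the same papilloma, *Krt4* and *Krt13* together stood at 42.0 to 74.5 FPKM per 100 FPKM of *Krt5* plus *Krt14* in CTR and at 10.3, 9.40 and 58.1 in TG 1 to 3. The sum of *Krt7*, *Krt8*, *Krt18* and *Krt19* stood at 0.0211 to 0.0884 per 100 in CTR and at 0.0244, 0.0429 and 0.678 in TG 1 to 3. The simple-epithelial keratins were thus a small part of the keratin RNA in all 7 papillomas, TG 3 included.

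**Figure D3:**
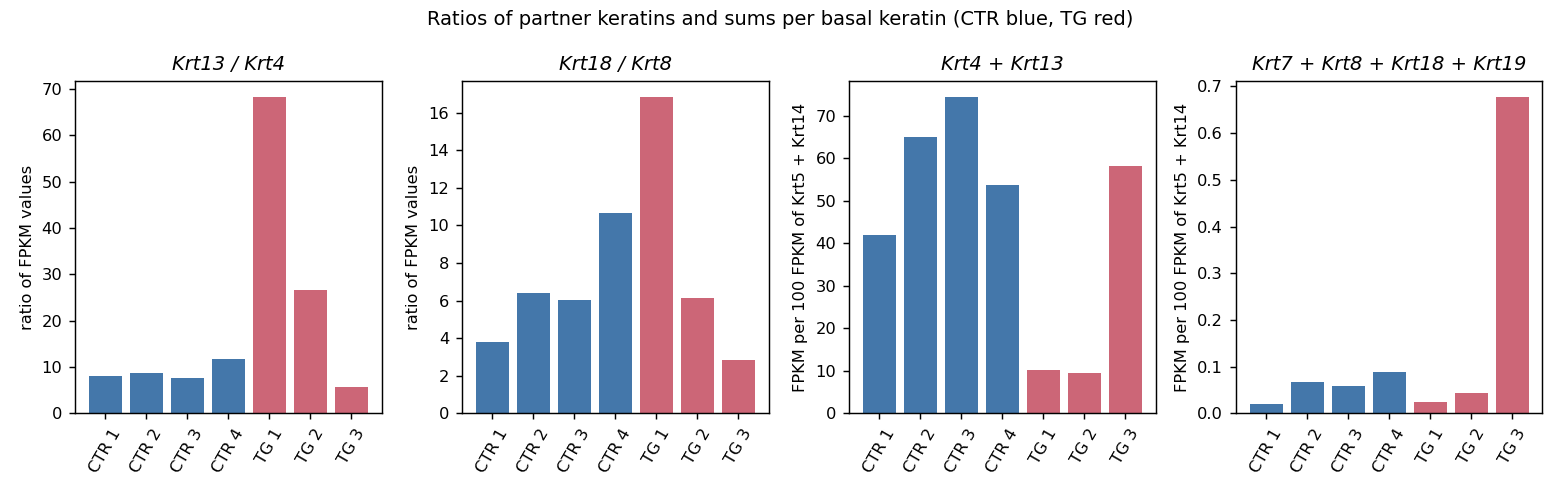
Bars give, for each papilloma (CTR blue, TG red), the FPKM ratios of *Krt13* to *Krt4* and of *Krt18* to *Krt8*, and the mucosal and simple-epithelial sums per 100 FPKM of *Krt5* plus *Krt14*. TG 1 has the highest ratio in both pairs (68.3 and 16.8), TG 3 has the lowest in both, and the simple-epithelial sum is 0.678 in TG 3 against at most 0.0884 elsewhere.

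Across the 7 papillomas the log2 levels of *Krt4* and *Krt13* had a Pearson r of 0.92, which was 0.94 without TG 3 and 0.90 over the 4 CTR papillomas. For *Krt8* and *Krt18* r was 0.89, 0.85 without TG 3 and 0.98 over CTR. For *Krt7* and *Krt19* it was 0.84, 0.67 without TG 3 and 0.94 over CTR. *Krt8* and *Krt19* had an r of 0.91 that rested on TG 3, since it was 0.02 without it and -0.03 over CTR. These r are descriptions over 7 libraries that differ in tissue markers and in depth, and the part of those differences in r was not tested.

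The tested genes with levels most like those of *Krt4* over the 7 papillomas, among 12293 searched, were *Gpr64* (r = 0.98), *Armc9* (r = 0.97) and *2210408F21Rik* (r = 0.97). *Gpr64*, an adhesion-type G protein-coupled receptor, ran from 5.51 to 8.79 FPKM in CTR papillomas and stood at 1.52, 2.39 and 6.32 FPKM in TG 1 to 3. Those nearest *Krt13* were *1110051M20Rik* (r = 0.99), the carboxylesterase *Ces2b* (r = 0.98) and the alcohol dehydrogenase *Adh5* (r = 0.97). None of these names belongs to a keratin, and 91 genes for *Krt4* and 66 for *Krt13* had an r above 0.9. Without TG 3 the r of these 6 genes lay between 0.97 and 0.99, and 176 and 148 genes had an r above 0.9.

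For *Krt8* the nearest were the lysosomal phosphatase *Acp2* (r = 0.999), *Ankrd23*, an ankyrin-repeat gene of striated muscle (r = 0.995), and *Il1b*, an inflammatory cytokine (r = 0.995). *Il1b* was 2.67, 4.25, 5.71 and 7.06 FPKM in CTR and 2.87, 6.01 and 71.9 FPKM in TG papillomas. For *Krt18* they were *Nrp1*, a semaphorin and VEGF co-receptor (r = 0.99), *Fbln2*, an extracellular matrix protein (r = 0.98), and *Trim35* (r = 0.97). For *Krt19* they were *Eef1a2*, a translation elongation factor of muscle and neurons (r = 0.996), *Rcsd1* (r = 0.99) and *Bst1* (r = 0.99). For *Krt7* they were *Dock11* (r = 0.98), the mitochondrial sirtuin *Sirt4* (r = 0.97) and the prostaglandin receptor *Ptger4* (r = 0.97). As many as 609 genes had an r above 0.9 with *Krt8*, against 355 for *Krt19*, 168 for *Krt18* and 54 for *Krt7*. Without TG 3 the r of the genes named for these 4 keratins lay between 0.93 and 0.98, and the numbers above 0.9 were 46 for *Krt8*, 45 for *Krt19*, 52 for *Krt18* and 52 for *Krt7*. The genes named for *Krt19* were tested through TG 3 alone. *Eef1a2*, *Rcsd1* and *Bst1* stood at 7.59, 2.67 and 1.79 FPKM in TG 3. Elsewhere they were at most 0.840, 0.579 and 0.574 FPKM, so their r without TG 3 rests on low values. All these genes were picked with TG 3 included, so nothing is read from their r without it.

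Related genes were tested from lists of the keratin family and its partners, in a limma fit over all 12299 tested genes. At an adjusted p under 0.05 (Benjamini-Hochberg) 0 genes were higher (0%) and 0 lower (0%) in TG over the whole table. By its own Cufflinks comparison, a different method, the paper reported a small set of genes higher in TG papillomas, *Nanog* among them. The limma fit was not read as a test of the 6 keratins, which were selected on this contrast. Before adjustment, 598 genes in the higher and 241 in the lower direction had a p under 0.05, and the median log2 difference of all tested genes was 0.06. Without TG 3, limma called 9 genes higher and 8 lower of 11990.

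Of 24 other type I keratins measured, 10 were tested and 0 were called, 8 with a positive and 2 with a negative difference, with a median of 0.09. *Krt12*, the keratin of corneal epithelium, was 4.38, 1.35, 4.43 and 1.79 FPKM in CTR and 0.567, 0.154 and 0.458 FPKM in TG papillomas. Every TG value of *Krt12* was below every CTR value, TG 3 included, with a log2 difference of -1.86 ± 0.40 (SE, adjusted p = 0.538 from limma). *Krt23* had a difference of -0.28, and -0.60 without TG 3 (adjusted p = 0.957 from limma). The hair root sheath keratins *Krt25* (1.28, adjusted p = 0.810 from limma) and *Krt27* (0.88, adjusted p = 0.861) stood at 4.45 and 4.15 FPKM in TG 3 against at most 0.246 and 0.365 FPKM elsewhere, and their differences without TG 3 were 0.30 and -0.11. Both passed the filter on low values through TG 3 alone, and both are among the 8 positive differences.

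Of 20 other type II keratins measured, 12 were tested and 0 called, 10 positive and 2 negative, with a median of 0.45 (0.27 without TG 3). *Krt75*, a keratin of the hair follicle companion layer, was 0.665 to 2.20 FPKM in CTR and 3.13, 4.45 and 3.60 FPKM in TG papillomas, so the groups did not overlap. Its difference was 1.32 ± 0.31 (SE, adjusted p = 0.558 from limma). *Krt80* did not overlap either, at 39.2 to 55.6 FPKM in CTR and 59.7 to 101 FPKM in TG papillomas (0.55, adjusted p = 0.713 from limma). The hyperproliferation keratin *Krt6a* had a difference of -0.07, and 0.05 without TG 3 (adjusted p = 0.986 from limma). *Krt79*, a keratin of the sebaceous duct, had one of -0.02 (adjusted p = 0.999), and -1.49 without TG 3. It was 1.33 to 8.36 FPKM in CTR and 0.958, 1.53 and 36.3 FPKM in TG 1 to 3, so TG 3 stood above all other papillomas and TG 1 below them.

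Of 15 genes known from stratified mucosa beside these keratins, all were tested and 0 called, 6 positive and 9 negative, with a median of -0.13 (-0.33 without TG 3). *Sprr3*, a small proline-rich protein of the esophageal cornified envelope, was 1023, 2642, 2580 and 1872 FPKM in CTR 1 to 4 and 153, 443 and 1576 FPKM in TG 1 to 3. TG 1 and TG 2 lay below all CTR papillomas and TG 3 above CTR 1, as for *Krt13*, with a log2 difference of -2.001 ± 0.70 (SE, adjusted p = 0.687 from limma), and -2.87 without TG 3. *Cnfn*, a cornified envelope component, was 1971 to 3823 FPKM in CTR and 1448 to 1786 FPKM in TG papillomas without overlap (-0.61, adjusted p = 0.795 from limma). In contrast, *Crnn*, the esophageal cornulin, had a positive difference of 1.19 (adjusted p = 0.653 from limma), with TG values of 4.32 to 7.61 FPKM against 1.10 to 4.89 FPKM in CTR. The epithelial serine protease *Tmprss11e* had one of 1.29 (adjusted p = 0.782), and 0.86 without TG 3.

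Of 15 genes of simple and glandular epithelium, 11 were tested and 0 called, 7 positive and 4 negative, with a median of 0.22 (-0.02 without TG 3). *Cldn4*, a tight junction claudin, had a difference of 0.42 (adjusted p = 0.842 from limma). The secretory gene *Wfdc2* was 17.4 to 27.8 FPKM in CTR and 9.93, 8.48 and 40.1 FPKM in TG 1 to 3. TG 1 and TG 2 lay below every CTR papilloma and TG 3 above all of them, and the difference was -0.52 (adjusted p = 0.887 from limma), or -1.21 without TG 3. The water channel *Aqp5* had a difference of -0.30 (adjusted p = 0.941 from limma), and -0.02 without TG 3. *Agr2*, a secretory-cell gene, was listed at 0 in all 7 papillomas.

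Of 15 measured genes in a list of keratin filament linkers, 14 were tested and 0 called, 10 positive and 4 negative, with a median of 0.28 (0.01 without TG 3). The list is mixed and also holds genes that are not keratin linkers, such as *Vim*, *Nes* and *Krtcap2*. *Vim*, the intermediate filament of mesenchymal cells, was 18.0 to 33.5 FPKM in CTR and 40.6, 37.3 and 83.3 FPKM in TG papillomas, with every TG value above every CTR value (0.96 ± 0.33, SE, adjusted p = 0.687 from limma). Without TG 3 the difference of *Vim* was 0.60. The linker *Plec*, plectin, had a difference of 0.33, and 0.21 without TG 3 (adjusted p = 0.831 from limma). *Krtcap2* had a difference of -0.45 (adjusted p = 0.827) and *Tchp*, trichoplein, one of -0.22 (adjusted p = 0.878), or -0.35 without TG 3.

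**Figure D4:**
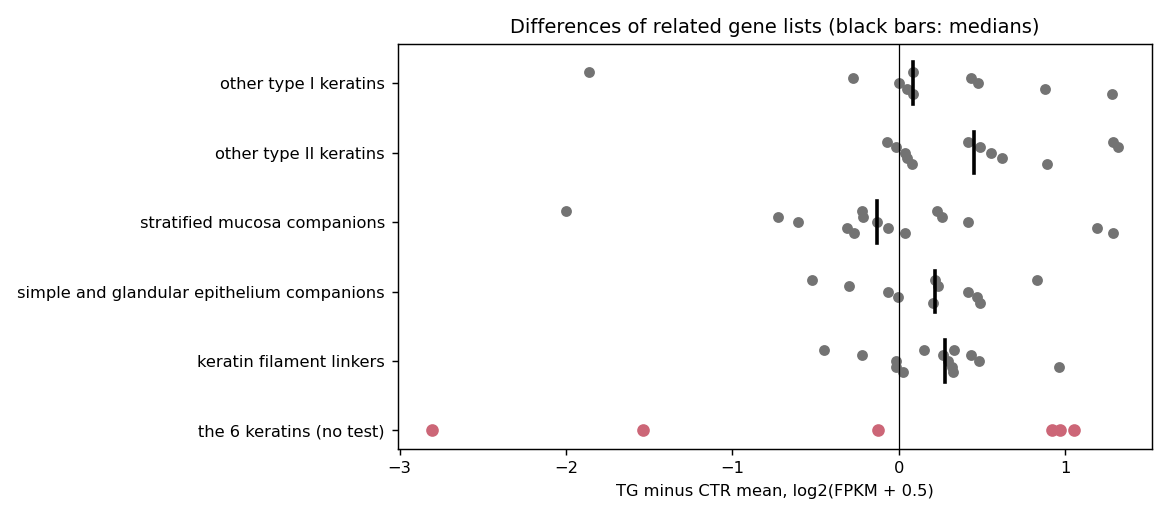
Each grey point is a tested gene of a related list, each black bar a list's median, and the red points are the 6 keratins; the axis is the TG minus CTR difference of the mean log2(FPKM + 0.5). The list medians lie between -0.13 and 0.45, with *Sprr3* at -2.001 and *Krt12* at -1.86 the lowest among the related genes.

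Markers of other cells were read beside these values. In TG 3, where the simple-epithelial keratins were highest, all 10 measured skeletal muscle markers were at their highest of the 7 papillomas. So were 6 of 7 fibroblast, 8 of 10 sebaceous gland and 5 of 10 sweat and mammary gland markers. Of all tested genes, 41.1% were highest in TG 3, so such counts alone say little about a cell type. The counts include markers too low to be tested. Among tested markers, 4 of 6 sebaceous gland and 3 of 5 sweat and mammary gland genes were highest in TG 3. The summed fibroblast markers were 62.6 to 88.4 FPKM in CTR, 67.6 and 71.0 FPKM in TG 1 and TG 2 and 486 FPKM in TG 3. The sebaceous sum was 29.4 to 68.3 FPKM in CTR, 57.1 and 28.1 FPKM in TG 1 and TG 2 and 129 FPKM in TG 3. The sweat and mammary sum, a gland type that makes these keratins, was 35.7 to 109 FPKM in CTR, 36.3 and 28.1 FPKM in TG 1 and TG 2 and 389 FPKM in TG 3. *Ltf*, lactoferrin, which neutrophils also make, carried 341 FPKM of the TG 3 sum. Without *Ltf* the sum was 35.6 to 74.5 FPKM in CTR and 36.2, 27.8 and 47.7 FPKM in TG 1 to 3, so TG 3 lay within the CTR range. The milk genes *Csn2* and *Csn3* were at 0 in every papilloma. Merkel cells, which make *Krt8* and *Krt18* in normal epidermis, had a marker sum of 0.501 to 2.41 FPKM in CTR and 3.08, 0.787 and 1.10 FPKM in TG 1 to 3. Single genes at low levels carried much of it, such as *Chga* with 2.76 FPKM in TG 1 and *Isl1* with 1.17 FPKM in CTR 2. Of 9 measured Merkel cell markers 2 were highest in TG 3, and the defining factor *Atoh1* was at 0 in all 7 papillomas.

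The 6 measured suprabasal epidermal markers summed to 7351 to 11680 FPKM in CTR papillomas, 12269 and 11928 FPKM in TG 1 and TG 2 and 4284 FPKM in TG 3. In this sum both TG 1 and TG 2 exceeded the CTR papillomas through *Krt1* and *Krt10*. Without those keratins it was 5627 to 10260 FPKM in CTR and 7602, 5486 and 3970 FPKM in TG 1 to 3, so TG 1 lay within the CTR range and TG 2 and TG 3 below it. This sum hides *Ivl*, at 17.7 to 26.8 FPKM in CTR and 159, 108 and 36.4 FPKM in TG 1 to 3. Its log2 difference was 2.01 (adjusted p = 0.538 from limma), and 2.62 without TG 3. Of the 6 suprabasal markers, 1 was higher without overlap in TG papillomas and 0 were lower. The paper also lists *Ivl* among the genes higher in TG papillomas. The 7 measured leukocyte markers summed to 624 to 1825 FPKM in CTR, 3376 and 4237 FPKM in TG 1 and TG 2 and 1683 FPKM in TG 3, with 96.2% to 99.4% of it from *S100a8* and *S100a9*, which neutrophils and stressed keratinocytes make. The other 5 summed to 20.0 to 25.0 FPKM in CTR and 20.5, 24.4 and 43.9 FPKM in TG 1 to 3, and 4 of 7 were highest in TG 3. Among these the pan-leukocyte gene *Ptprc* was 0.784 to 1.46 FPKM in CTR and 0.766, 1.45 and 8.17 FPKM in TG 1 to 3. The endothelial sum was 8.35 to 14.3 FPKM in CTR and 21.4, 11.7 and 28.9 FPKM in TG papillomas, with 4 of 6 markers highest in TG 3. Among tested markers the counts were 3 of 6 for leukocytes and 3 of 5 for endothelium, beside the 41.1% of all tested genes that were highest in TG 3. The adipocyte sum was 1374 to 3228 FPKM in CTR and 1545 to 2269 FPKM in TG papillomas, with 98.1% or more of it from *Fabp4*. The other 5 adipocyte markers were all highest in TG 3, where they summed to 31.9 FPKM against at most 0.0484 FPKM elsewhere. The basal sum of 7 markers was 6660 to 9910 FPKM in CTR and 12963, 8960 and 6896 FPKM in TG papillomas. The part of these cell types in the keratin levels was not tested.

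The transcripts of *Krt8* and *Krt18* resemble processed pseudogenes, so a short read can fit more than 1 place. Of all 40-base windows of *Krt8* transcripts, 50.5% matched another gene's transcript with at most 2 mismatches, 46.6% the pseudogene *Krt8-ps*. For *Krt18* the share was 39.99%, with 33.5% matching *Gm5200*. The shares were 3.82% for *Krt4*, 5.14% for *Krt13*, 7.23% for *Krt7* and 7.22% for *Krt19*, mostly with other keratins for *Krt4*, *Krt13* and *Krt19*. The *Krt7* windows came from a GENCODE transcript of 4094 bases, and the GENCODE gene ends 2507 bases past the deposited locus. Its share may therefore not describe the *Krt7* model that was measured. The levels of *Krt8* and *Krt18* are uncertain for this reason, beside the few reads behind *Krt7*, *Krt8* and *Krt19* outside TG 3.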

How the data were processed

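PolyA+ RNA of 7 papillomas was sequenced as single reads of 40 bases from stranded libraries. The labels name Trizol with an RNeasy kit and the methods name another RNeasy kit. The authors used TopHat 2.0.4 (with Bowtie 0.12.7 and Samtools 0.1.16) on the GRCm38/mm10 genome, ran Cufflinks 1.3.0 on each library, and deposited FPKM values with an interval and a status. Whether counting used the strand is not given in the sources used here. Reads were implied from the interval widths, which describe uncertainty within a library and not the spread between mice. Of implied reads under 50, 66.8% to 68.4% in a papilloma lay within 0.05 of a whole number. The widths therefore need not reflect counting error alone, and implied reads are approximate.

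Entries of a symbol were summed (240 symbols), and 162 symbols with the status FAIL were left out. Locus starts were increased by 1. Values were fitted as log2(FPKM + 0.5) with limma 3.58.1 (R 4.3.3, variance trend) over 12299 genes averaging 0.5 FPKM or more, two-sided, with Benjamini-Hochberg adjustment. The fit was tested on simulated data. Python 3.11.15, numpy 2.4.6, pandas 2.3.3 and matplotlib 3.10.9 were also used. Windows were matched to GENCODE vM21 transcripts with bwa, and promoters came from RefSeq.

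The 6 keratins and the lists were chosen with earlier results of these data known, partly from lists of that earlier work. The named genes were the 6 keratins, the 3 tested genes with the highest r for each, and every called gene of a related list or, with none called, the 2 genes of smallest p in each direction, with *Nanog* as a check of the labels. 1 gene that this rule names is left out of the text. Genes named beside these, and cell type markers at 0, were chosen after their values were seen. *Krt72*, *Fam83h*, *Syne3*, *Piezo2*, *Flg* and *Ly6g* had no entry that could be used. Alternatives were other pseudocounts, filters, scalings, moderation, quality weights, symbol and status rules, a replicate block, the papillomas of lower depth, leaving out each papilloma and, added after seeing the data, levels relative to basal epidermis markers. Cuffdiff, which starts from alignments, was not run.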

Additional observations from a re-analysis of the deposited data

Results flagged for a closer look

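2 of 22 sets of 4 CTR values held a papilloma far from the others, with a gap to its neighbor that passes Dixon's critical value at the 0.05 level, as chance alone does in about 1 in 20 sets. *Nanog* was 12.7 FPKM in CTR 3 against 2.70 to 3.35 FPKM in the other CTR papillomas, a gap of 0.936 of the range. The share of *Krt19* in the summed FPKM of all keratins was 0.00445% in CTR 2 against 0.000966% to 0.0013% in the other CTR papillomas, a gap of 0.904 of the range. The *Krt19* value of CTR 2 rests on about 30 reads.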

How the results depend on the processing

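*Krt4* and *Krt13* kept a negative difference under all 16 alternatives run for each, from -4.33 to -1.66 for *Krt4* and from -2.10 to -1.08 for *Krt13*. *Krt19* stayed positive or at 0.00 under 16, up to 1.63. Leaving out a papilloma at a time moved *Krt7* between -0.92 (without TG 3) and 0.39, *Krt8* between -0.26 (without TG 3) and 1.63, and *Krt18* between -0.047 (without TG 3) and 1.48, and the papillomas of lower depth alone gave 0.42 for *Krt7*. Levels relative to basal epidermis markers, added after seeing the data, turned no direction.

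Sample quality weights in limma called 49 genes higher and 36 lower, among them *Krt12*, the 1 other type I keratin called. The papillomas of lower depth alone called 1 gene higher. Leaving out a papilloma at a time called 0 to 9 genes higher and 0 to 8 lower, the most in both directions without TG 3. The median difference of all tested genes reached 0.13 with the papillomas of lower depth alone and without TG 1.

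Same-numbered CTR and TG papillomas deviated together with r of -0.19, 0.04 and -0.15, and differently numbered ones with r from -0.14 to 0.31. With so few papillomas these r cannot show whether a shared number marks a litter or a batch. The mice were treated as unpaired. A replicate block, which leaves out CTR 4, called 0 genes higher and 0 lower and gave -2.89 for *Krt4* and -1.49 for *Krt13*, and it turned no direction among the 6 keratins. The files give no read numbers, so depth limits *Krt7*, *Krt8* and *Krt19*, whose values outside TG 3 rest on few reads.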
